A study of Mus musculus with 16 samples.

Results

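Cyclins and genes of mitosis, 47 in all, were examined in RNA of MC/9 cells, an interleukin-dependent mouse mast cell line grown in suspension, and of the exosomes that these cells release. The members were every probe set on the Affymetrix mouse array whose single gene symbol was one of the 47. In all, 46 genes with 112 probe sets were found among 18193 genes and 45037 tested probe sets, and Ccnb1 was not analysed here. One probe set stood for each gene, the one of highest mean log2 signal over the 8 cell arrays.

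The arrays fell into 4 groups of 4. The groups norm cell and norm exo are MC/9 cells from normal conditions and the exosomes from such cultures, and oxi cell and oxi exo are cells and exosomes from cultures given 125 µM H2O2 for 24 h. All cultures had 10% fetal bovine serum and 10% Rat T-Stim, both freed of exosomes by ultracentrifugation, and exosomes were taken from the medium after filtration and pelleted by ultracentrifugation. The labels do not settle what the cell arrays hold, since their titles name cells of each condition while their descriptions name cells that had been given exosomes of that condition, so a change called one of H2O2 below rests on the titles and on the study's methods. The study says of a pair of norm cell arrays and of a pair of norm exo arrays that they came from different cultures, without tying them to replicate numbers, and the sources give no origin for the other arrays, so p-values measure the spread between these samples, which may in part be technical.

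Progression through the cell cycle is driven by cyclin-dependent kinases, whose cyclin partners are made and destroyed in turn. D-type and E-type cyclins act up to the start of DNA replication, cyclin A acts in S phase and G2, and cyclin B with Cdk1 drives entry into mitosis. Aurora and Polo kinases then build the spindle, the spindle checkpoint holds anaphase until every chromosome is attached, and the anaphase-promoting complex ends mitosis by marking cyclin B and securin for destruction. Transcripts of the mitotic group are made mainly in G2 and mitosis, and in whole cultures a larger share of cells in those phases and more RNA per cell cannot be told apart. The study chose the H2O2 dose to give a moderate degree of cell death, and its part in the results was not tested.

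Many promoters of this late group carry CCAAT boxes and the cell cycle homology region, or CHR, near their start. Stretches of 180 bases, from 150 before to 30 after the annotated start, are shown for the 4 genes of largest rise in the cells among those with a RefSeq promoter and a chromosome that could be printed, and for Cks2 and Nuf2, which did not pass the test. They come from RefSeq promoters of the GRCm38.p6 build and run 5′ to 3′ along each gene's own strand. They are Ube2c at chr2:164769779-164769958 (forward strand), Ccnb2 at chr9:70421525-70421704 (reverse strand), Aurka at chr2:172370541-172370720 (reverse strand), Nek2 at chr1:191821323-191821502 (forward strand), Cks2 at chr13:51645082-51645261 (forward strand) and Nuf2 at chr1:169531435-169531614 (reverse strand). Capitals mark CCAAT or its reverse complement ATTGG, and TTTGAA or its reverse complement TTCAAA, the latter pair being the form of the CHR that was searched.
Ube2c: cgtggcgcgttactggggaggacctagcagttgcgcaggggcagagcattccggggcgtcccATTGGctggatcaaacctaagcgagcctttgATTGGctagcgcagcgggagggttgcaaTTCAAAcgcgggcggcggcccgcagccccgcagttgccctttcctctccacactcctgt
Ccnb2: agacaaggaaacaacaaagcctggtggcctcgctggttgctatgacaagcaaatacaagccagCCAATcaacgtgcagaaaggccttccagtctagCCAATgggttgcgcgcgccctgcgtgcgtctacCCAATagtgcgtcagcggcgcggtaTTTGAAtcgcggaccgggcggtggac
Aurka: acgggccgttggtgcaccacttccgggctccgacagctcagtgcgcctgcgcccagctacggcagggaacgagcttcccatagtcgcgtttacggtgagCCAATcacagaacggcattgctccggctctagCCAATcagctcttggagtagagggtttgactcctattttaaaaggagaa
Nek2: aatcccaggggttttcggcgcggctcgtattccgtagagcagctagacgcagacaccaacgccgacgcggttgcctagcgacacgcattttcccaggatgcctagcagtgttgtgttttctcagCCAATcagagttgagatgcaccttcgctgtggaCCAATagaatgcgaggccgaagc
Cks2: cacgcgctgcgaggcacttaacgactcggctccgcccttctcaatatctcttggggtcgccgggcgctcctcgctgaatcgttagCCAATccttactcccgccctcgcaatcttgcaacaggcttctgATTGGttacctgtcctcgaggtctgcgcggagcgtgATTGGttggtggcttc
Nuf2: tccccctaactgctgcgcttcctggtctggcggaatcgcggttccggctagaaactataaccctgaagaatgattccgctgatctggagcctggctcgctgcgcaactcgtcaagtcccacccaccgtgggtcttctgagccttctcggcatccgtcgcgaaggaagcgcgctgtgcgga
Ube2c and Ccnb2 held both motifs in this stretch, Aurka and Nek2 held CCAAT boxes, Cks2 held CCAAT boxes without the CHR letters, and Nuf2 held neither. A match for the CHR in Aurka began 33 bases after the start, past the end of the stretch shown.

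Signals are MAS5.0 values on a linear scale, set by the authors to a trimmed mean of 100 on every array, and the background of an array was taken as the 95th percentile over 275 probe sets chosen for genes foreign to mast cells. That background was 15.2 to 18.8 in norm cell and 11.4 to 14.8 in oxi cell, but 213 to 252 in norm exo and 236 to 262 in oxi exo. The spiked hybridization controls were likewise far brighter on exosome arrays, with means of 13717 and 13435 against 792 and 645 on cell arrays. For Gapdh, 3′ signal divided by 5′ signal was 1.43 to 2.33 on exosome arrays and 0.823 to 0.884 on cell arrays. For actin the same quotient was higher, at 3.81 to 6.55 in norm exo and 2.77 to 4.48 in oxi exo. In norm cell and oxi cell it was 1.41 to 1.46 and 1.30 to 1.55. The actin means were 5.35 in norm exo and 3.86 in oxi exo, and their part in the exosome results was not tested. Of 12 measured mast cell markers, 11 were above background on all 4 arrays of norm cell and 12 of oxi cell, with summed signals of 49938 to 54400 and 37701 to 44960.1, and 7 in norm exo (summed 4658 to 7488) and 2 in oxi exo (1925 to 2784). Markers of other cells that passed in norm cell and oxi cell were 0 and 2 of 10 for T and B lymphocytes and 1 and 2 of 11 for macrophages and neutrophils. For the erythroid lineage they were 2 and 2 of 4. In norm exo and oxi exo 1 lymphocyte marker passed, Zap70 in both, and no marker of macrophages, neutrophils or the erythroid lineage did.

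In the cells, most of the genes of mitosis were higher after H2O2, and several regulators of G1 were lower. By limma with Benjamini-Hochberg adjustment over all probe sets, 27 of the 46 genes were higher in oxi cell, 5 were lower and 14 did not pass at 0.05. Over all genes 6.74% were higher and 5.29% lower, and among the 4548 genes of highest cell signal 20.1% were higher and 12.4% lower. The rises were small, from 1.18-fold for Ccna2 to 2.01-fold for Ube2c, and the median log2 change of the 46 genes was 0.31 against -0.08 over all genes and -0.15 over all probe sets. That median of all probe sets moved to 0.0015 after quantile normalization and to 0.15 after spiked-control scaling (each array set to its spiked hybridization controls), and relative to it the rises ran from 0.39 to 1.15 and the falls from -0.37 to -0.08. All 4 oxi cell arrays lay above all 4 norm cell arrays for 27 genes and below them for 7, where 9.87% and 9.82% of all genes did so. All genes but Cdk6 were above background on all 4 norm cell arrays (45 genes), and all 46 were on the oxi cell arrays. The summed signal of mast cell markers and the signal of the spiked controls were lower in oxi cell, as given above, and their part in the result was not tested.

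**Figure D1:**
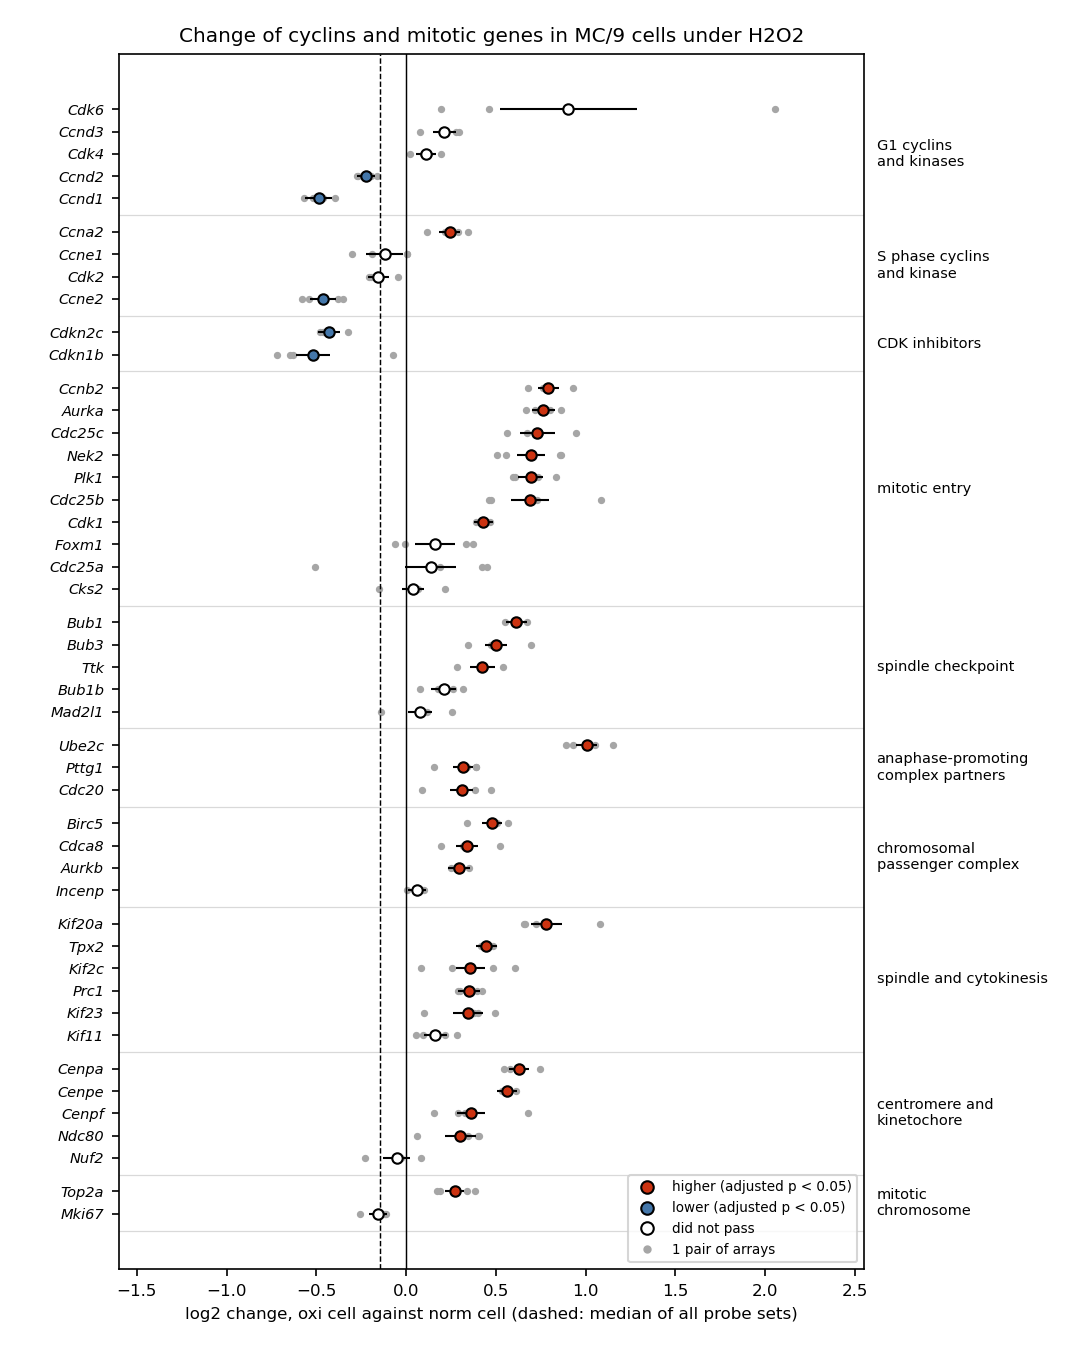
Log2 change in oxi cell against norm cell for 46 genes, grouped by role. Large points and bars give the limma estimate and its SE, filled red for the 27 higher and blue for the 5 lower genes, small grey points are the 4 same-numbered array pairs, and the dashed line at -0.15 is the median of all probe sets.

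Entry into mitosis was the largest group, and 7 of its 10 measured genes were higher and none lower. Ccnb2, which encodes cyclin B2, read 835, 764, 871 and 848 in norm cell and 1417, 1452, 1518 and 1357 in oxi cell, a log2 change of 0.79 (SE 0.06, adjusted p = 3.89e-05). Cdk1, the kinase that cyclin B activates, read 938, 930.1, 950.3 and 918 in norm cell and 1253, 1268, 1246 and 1267 in oxi cell, a log2 change of 0.43 (SE 0.05, adjusted p = 5.34e-04). Every oxi cell array was above every norm cell array for both, and Cdk1 varied little within either group. The Cdk1-activating phosphatases Cdc25b and Cdc25c were also higher. Cdc25b read 157, 139, 142 and 136 in norm cell and 217, 193, 302 and 225 in oxi cell, a log2 change of 0.69 (SE 0.11, adjusted p = 0.00201). Cdc25c read 92.4, 83.3, 77.3 and 86.0 in norm cell and 136, 139, 149 and 137 in oxi cell, a log2 change of 0.73 (SE 0.10, adjusted p = 0.00100). For neither phosphatase did the groups overlap, and Cdc25b was highest on the third oxi cell array. Cdc25a, the family member that also acts at the G1 to S transition, read 114, 120.2, 151 and 139 in norm cell and 155, 161, 106 and 158 in oxi cell, and its groups overlapped (log2 change 0.14 (SE 0.14, adjusted p = 0.638)).

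The mitotic kinases of this group moved alike. Aurka, the spindle pole kinase Aurora A, read 303, 289, 269 and 281 in norm cell and 528, 476, 428 and 511 in oxi cell, a log2 change of 0.76 (SE 0.06, adjusted p = 8.53e-05). Plk1, the Polo kinase of spindle assembly, read 234, 258, 251 and 271 in norm cell and 418, 393, 417 and 409.6 in oxi cell, a log2 change of 0.69 (SE 0.07, adjusted p = 2.05e-04). Nek2, which splits the centrosomes, read 226, 264, 234 and 284 in norm cell and 412, 387, 424 and 403 in oxi cell, a log2 change of 0.70 (SE 0.08, adjusted p = 4.26e-04). None of these kinases had an oxi cell array as low as any norm cell array. Other genes of mitotic entry did not pass the test. Cks2, a small subunit bound to the cyclin-dependent kinase, was at 2843 ± 131 and 2926 ± 224 (log2 change 0.04, adjusted p = 0.779). Foxm1, a transcription factor of G2 and mitosis genes, was at 95.6 ± 12.5 and 106 ± 5.58 (log2 change 0.16, adjusted p = 0.440), and its groups overlapped.

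The partners of the anaphase-promoting complex were higher in 3 of 3 genes, and Ube2c had the largest rise of all members. Ube2c, the ubiquitin-conjugating enzyme that works with the complex, read 1099, 995, 1009 and 1077 in norm cell and 2040.3, 2063, 2245 and 2048 in oxi cell, a log2 change of 1.01 (SE 0.06, adjusted p = 2.17e-05). Its lowest oxi cell array was far above its highest norm cell array. Cdc20, the activator of the complex in mitosis, read 2074, 1939, 1962 and 1931 in norm cell and 2208, 2379, 2719 and 2515 in oxi cell, a log2 change of 0.31 (SE 0.06, adjusted p = 0.0104). Pttg1, the separase inhibitor securin that the complex destroys, read 1792, 1581, 1778 and 1639 in norm cell and 1998, 2071, 2325 and 2069.6 in oxi cell, a log2 change of 0.32 (SE 0.06, adjusted p = 0.00445). The groups were apart for these as well, by narrower margins than for Ube2c. Without replicate 4 the call of Cdc20 was lost (adjusted p = 0.0730 by limma).

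**Figure D2:**
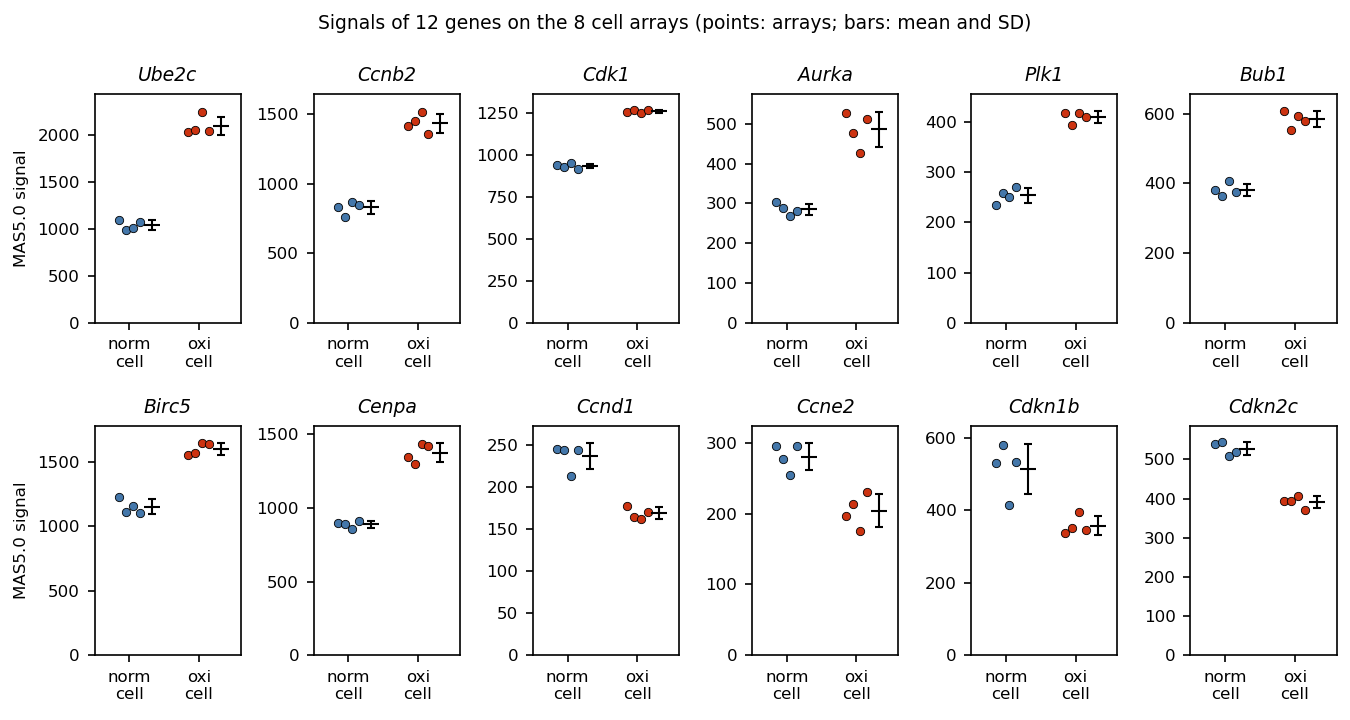
MAS5.0 signal (linear axes from 0) of 12 genes on each of the 4 norm cell arrays (blue) and 4 oxi cell arrays (red), with the mean and SD of each group beside the points. In the first 8 panels all oxi cell arrays lie above the norm cell arrays, and in Ccnd1, Ccne2, Cdkn1b and Cdkn2c they lie below.

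Of the spindle checkpoint, which delays anaphase, 3 of 5 genes were higher. Bub1, its kinetochore kinase, read 381, 364, 406 and 375 in norm cell and 608, 553, 594 and 580.0 in oxi cell, a log2 change of 0.61 (SE 0.06, adjusted p = 1.67e-04). Bub3, the adaptor that brings Bub1 to the kinetochore, read 1051, 985, 1133 and 1033 in norm cell and 1470.1, 1593, 1441 and 1433 in oxi cell, a log2 change of 0.50 (SE 0.06, adjusted p = 6.66e-04). Ttk, the kinase Mps1 at the top of the checkpoint, read 242, 234, 215 and 261 in norm cell and 329, 316, 312 and 318 in oxi cell, a log2 change of 0.42 (SE 0.07, adjusted p = 0.00302). In each of these the oxi cell arrays stood above the norm cell arrays without overlap. Mad2l1, which encodes the inhibitor Mad2, read 978, 884, 1038 and 1017 in norm cell and 1058, 1054, 942 and 1078 in oxi cell, with overlap and a log2 change of 0.08 (SE 0.07, adjusted p = 0.551). Bub1b, which encodes the checkpoint protein BubR1, was at 301 ± 4.69 and 348 ± 21.4 (log2 change 0.21, adjusted p = 0.0800), and its groups did not overlap although the adjusted p missed the threshold.

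The chromosomal passenger complex, which corrects faulty attachments and guides cytokinesis, was higher in 3 of 4 genes. Birc5, its survivin subunit, read 1228, 1113, 1158 and 1104 in norm cell and 1552, 1568, 1646 and 1637 in oxi cell, a log2 change of 0.48 (SE 0.06, adjusted p = 4.81e-04). Cdca8, the subunit borealin, read 1465, 1350.3, 1263 and 1390.2 in norm cell and 1675, 1694, 1815 and 1729 in oxi cell, a log2 change of 0.34 (SE 0.06, adjusted p = 0.00461). Aurkb, its kinase Aurora B, was at 335 ± 9.97 and 410.5 ± 18.8 (log2 change 0.29, adjusted p = 0.0105). These 3 genes had no overlap between groups, and without replicate 1 the call of Aurkb was lost (adjusted p = 0.0513 by limma). Incenp, the scaffold of the complex, stood apart from them and read 1950.0, 1900.4, 1976 and 2082 in norm cell and 1959, 1974, 2099.8 and 2231 in oxi cell, with a log2 change of 0.06 (SE 0.05, adjusted p = 0.520).

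Among genes of the spindle and cytokinesis, 5 of 6 were higher. Kif20a, a kinesin of the late spindle, read 189.9, 140.1, 189 and 173 in norm cell and 299.8, 296, 299 and 285 in oxi cell, a log2 change of 0.78 (SE 0.09, adjusted p = 3.51e-04). Tpx2, the spindle protein that activates Aurora A, read 409, 389, 399 and 406 in norm cell and 545, 530.1, 558 and 552 in oxi cell, a log2 change of 0.45 (SE 0.06, adjusted p = 7.71e-04). Kif2c, a kinesin that takes microtubules apart, read 469, 505, 416 and 485 in norm cell and 560.1, 535, 633 and 679 in oxi cell, a log2 change of 0.36 (SE 0.08, adjusted p = 0.0173). All 4 oxi cell arrays exceeded the norm cell arrays in each. Prc1, which bundles the microtubules of the midzone, was at 329.7 ± 9.23 and 421 ± 14.9 (log2 change 0.35, adjusted p = 0.00458), and Kif23, a motor of the same region, was at 182 ± 9.78 and 231 ± 19.0 (log2 change 0.34, adjusted p = 0.0230). Kif11, the motor that pushes spindle poles apart, did not pass at 362 ± 32.2 and 404 ± 20.1 (log2 change 0.16, adjusted p = 0.165). By limma the call of Kif2c was lost without replicate 3 (adjusted p = 0.0667) or 4 (0.0977), and that of Kif23 without replicate 1, 2 or 3 (0.0787 to 0.0980).

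Of the centromere and kinetochore, 4 of 5 genes were higher. Cenpa, the histone H3 variant that marks centromeres, read 899, 889, 855 and 913 in norm cell and 1342, 1299, 1435 and 1419 in oxi cell, a log2 change of 0.63 (SE 0.06, adjusted p = 1.09e-04). Cenpe, a kinesin that moves chromosomes to the spindle equator, read 461, 433, 452 and 469 in norm cell and 677, 635, 691 and 678 in oxi cell, a log2 change of 0.56 (SE 0.06, adjusted p = 2.10e-04). Cenpf, a large kinetochore protein of G2 and mitosis, read 664, 640.3, 547 and 639 in norm cell and 812, 713, 875 and 803 in oxi cell, a log2 change of 0.36 (SE 0.08, adjusted p = 0.0130). The groups were apart in all of these. Ndc80, the microtubule-binding subunit of the outer kinetochore, was at 159 ± 8.25 and 197 ± 17.2 (log2 change 0.30, adjusted p = 0.0473), while its direct partner Nuf2 was at 274 ± 18.5 and 264 ± 17.1 (log2 change -0.05, adjusted p = 0.745) and overlapped. Whether Ndc80 and Nuf2 differed from each other was not tested. By limma the call of Ndc80 was lost without replicate 2, 3 or 4 (adjusted p = 0.108 to 0.185) and with an offset of 100 (0.0677), and that of Cenpf without replicate 4 (0.0522).

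Of the mitotic chromosome genes, 1 of 2 was higher. Top2a, the topoisomerase that untangles chromosomes, read 2599, 2492, 2666 and 3049.5 in norm cell and 2961, 3155, 3473 and 3429 in oxi cell, a log2 change of 0.27 (SE 0.06, adjusted p = 0.00970), and its groups overlapped, the fourth norm cell array being above the lowest oxi cell array. Without replicate 2 its call was lost (adjusted p = 0.0587 by limma). Mki67, which encodes the Ki-67 antigen of cycling cells, read 2817, 2755, 2929 and 2851 in norm cell and 2358, 2545, 2679 and 2626 in oxi cell. It lay lower on every oxi cell array, with a log2 change of -0.15 (SE 0.05, adjusted p = 0.0856) that did not pass, close to the median of all probe sets.

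Regulators of G1 and of S phase entry were lower where they passed, except Ccna2. Of the G1 cyclins and kinases 2 of 5 were lower, of the S phase cyclins and kinase 1 of 4 was lower and 1 higher, and both CDK inhibitors were lower. Ccnd1, which encodes cyclin D1, read 246, 245, 214 and 245 in norm cell and 178, 165, 162 and 171 in oxi cell, a log2 change of -0.49 (SE 0.07, adjusted p = 0.00186). Ccne2, which encodes cyclin E2, read 295, 277, 255 and 295 in norm cell and 197, 213, 176 and 231 in oxi cell, a log2 change of -0.46 (SE 0.07, adjusted p = 0.00244). Both were lower on every oxi cell array. Ccnd2, which encodes cyclin D2, read 8577, 8596, 9541 and 9631 in norm cell and 7493, 7684, 7879 and 7988 in oxi cell, a log2 change of -0.23 (SE 0.05, adjusted p = 0.0146). Relative to the median of all probe sets its change was -0.08, and the change itself was 0.0167 after quantile normalization and 0.0709 after spiked-control scaling, so its direction flips with the scaling. Its call was also lost without replicate 3 (adjusted p = 0.0650 by limma) or 4 (0.123). The inhibitor Cdkn1b, or p27, read 529, 578, 415 and 533 in norm cell and 338, 351, 395 and 344 in oxi cell, a log2 change of -0.52 (SE 0.10, adjusted p = 0.00584). Cdkn2c, the INK4 inhibitor p18, read 538, 543, 509 and 518 in norm cell and 394, 395, 406 and 371 in oxi cell, a log2 change of -0.43 (SE 0.06, adjusted p = 0.00124). The groups did not overlap for either, and for Cdkn1b the third pair of arrays was the closest. After spiked-control scaling none of the 5 falls passed, and the changes of Ccnd1, Ccne2, Cdkn1b and Cdkn2c were -0.19, -0.17, -0.22 and -0.13.

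The remaining genes of these phases included Ccna2, which encodes the cyclin A of S phase and G2 and read 693, 715, 691 and 771 in norm cell and 805, 873, 879 and 836 in oxi cell, a log2 change of 0.24 (SE 0.06, adjusted p = 0.0229). It was higher on every oxi cell array, but by limma its call was lost after quantile normalization (adjusted p = 0.0545) and without replicate 1, 2 or 3 (0.0580 to 0.106). Cdk2, the partner of cyclins E and A, read 458, 483, 465 and 462 in norm cell and 443, 422, 402 and 411 in oxi cell, lower on every array but not past the threshold (log2 change -0.15 (SE 0.06, adjusted p = 0.155)). Cdk4, the partner of D cyclins, read 888, 819.8, 824 and 843 in norm cell and 901, 876, 943 and 921 in oxi cell, with an overlap and a log2 change of 0.11 (SE 0.05, adjusted p = 0.273). Ccnd3, for cyclin D3, was at 346 ± 33.2 and 400.1 ± 19.6 (log2 change 0.21, adjusted p = 0.0635), and Ccne1, for cyclin E1, did not pass either (log2 change -0.12 (SE 0.10, adjusted p = 0.558)). Cdk6, the other partner of D cyclins, was near background, from 2.91 to 17.9 over the norm cell arrays and from 12.1 to 25.5 over the oxi cell arrays, so its change of 0.90 (SE 0.38, adjusted p = 0.187) rests on weak signals.

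Other probe sets of the same genes numbered 66, for 33 of the genes. Of these, 11 were higher and 4 lower in oxi cell, and none was called against the direction of the probe set used. Cdk4 had another probe set that was higher where the one used did not pass. The rest of the 66 did not pass. Ccnd1 was lower for 2 of its 3 probe sets and Ccnd2 for 4 of 7, while Cdc20 and Cdca8 were higher for 3 of 3 each and Bub1 and Cdc25c for 2 of 2. Other rises passed for 1 probe set only, as for Bub3 (1 of 5), Nek2 (1 of 4) and Cenpa, Cenpf, Top2a and Kif23 (1 of 3 each). The same held for Aurka, Aurkb, Ccna2, Cenpe and Ttk (1 of 2 each). Among the rises, a negative change was seen for 1 probe set each of Bub3, Nek2, Kif23, Aurka, Kif2c and Tpx2. It was seen for 2 each of Cenpf and Top2a. None of these negative changes passed, and the lowest were -1.92 for Kif23 and -0.41 for Aurka.

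A separate list of 103 other genes of the cell cycle also held more rises than falls. Of these genes, 31 were higher and 7 lower in oxi cell, with a median log2 change of 0.12, where 6.74% and 5.29% of all genes were. Among the 4548 genes of highest cell signal the shares were 20.1% and 12.4%. In each cell group 98 of the 103 were above background on all 4 arrays, against 51.1% and 52.5% of all genes. The list was chosen with earlier results of these data known, so it is no independent check. Spiked-control scaling gave 67 and 1, and it moved all genes the same way, to 22.3% higher and 0.813% lower. Cenpn, a centromere protein that reads Cenpa nucleosomes, read 139.8, 150.4, 149 and 138 in norm cell and 280.3, 274, 270.3 and 302 in oxi cell, a log2 change of 0.96 (SE 0.08, adjusted p = 7.07e-05). Dlgap5, a spindle microtubule protein, read 198, 199, 209 and 199 in norm cell and 314, 336, 374 and 344 in oxi cell, a log2 change of 0.76 (SE 0.07, adjusted p = 1.18e-04), and Tacc3, a microtubule protein bound by Aurora A, was at 227 ± 14.9 and 359.9 ± 27.9 (log2 change 0.66, adjusted p = 1.84e-04). These mitotic genes had no overlap between groups. Ccng1, which encodes the p53-induced cyclin G1, read 1784, 1851, 1790.1 and 1770.5 in norm cell and 3025, 2981, 3146 and 3346 in oxi cell, and Cdkn1a, the p53-induced inhibitor p21, read 766, 764, 805 and 812 in norm cell and 1454, 1321, 1382 and 1089.6 in oxi cell. Their log2 changes were 0.80 (SE 0.05, adjusted p = 2.86e-05) and 0.73 (SE 0.08, adjusted p = 2.46e-04), so p21 was higher while p27 and p18 were lower. E2f2, an activator of S phase genes, read 138, 151, 137 and 162 in norm cell and 77.2, 90.0, 86.9 and 119 in oxi cell, a log2 change of -0.67 (SE 0.10, adjusted p = 0.00149), and it was lower on every array.

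In promoters of the members, CHR and CCAAT letters were more frequent than in promoters at large. A window of 300 bases, from 250 before to 50 after the start, was searched on both strands in 40 promoters of 36 measured genes and in 32851 promoters of 27025 genes. TTTGAA or its reverse complement stood in 52.5% of the members' promoters and 17.9% of all, CCAAT or its reverse complement in 72.5% and 37.4%, and both in 47.5% and 6.95%. A match of one motif is not a match of the other, though adjoining matches can share a base. Among 24 promoters of 22 genes higher in oxi cell, 75% held the CHR letters, 83.3% CCAAT and 66.7% both. Among 13 promoters of 12 genes that did not pass, the shares were 23.1%, 53.8% and 23.1%, and of 3 promoters of the lower genes Cdkn1b and Cdkn2c, 0 held the CHR letters and 2 held CCAAT. Of the promoters of genes that did not pass, the 3 with CHR letters were those of Bub1b, Mki67 and Kif11, all mitotic genes. None of Ccnd3, Ccne1, Cdk2, Cdk4 and Cdk6 held them. Neither did Cdc25a, Cks2, Mad2l1 and Nuf2, which also did not pass and are grouped above under mitotic roles. The sets thus also differ in role, and the shares cannot separate role from the change under H2O2. No test was made of these shares, and a match describes letters and not a site in use. The matches lay near the start, with 20 of 25 CHR matches and 44 of 63 CCAAT matches between 100 bases before and 50 after it.

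**Figure D3:**
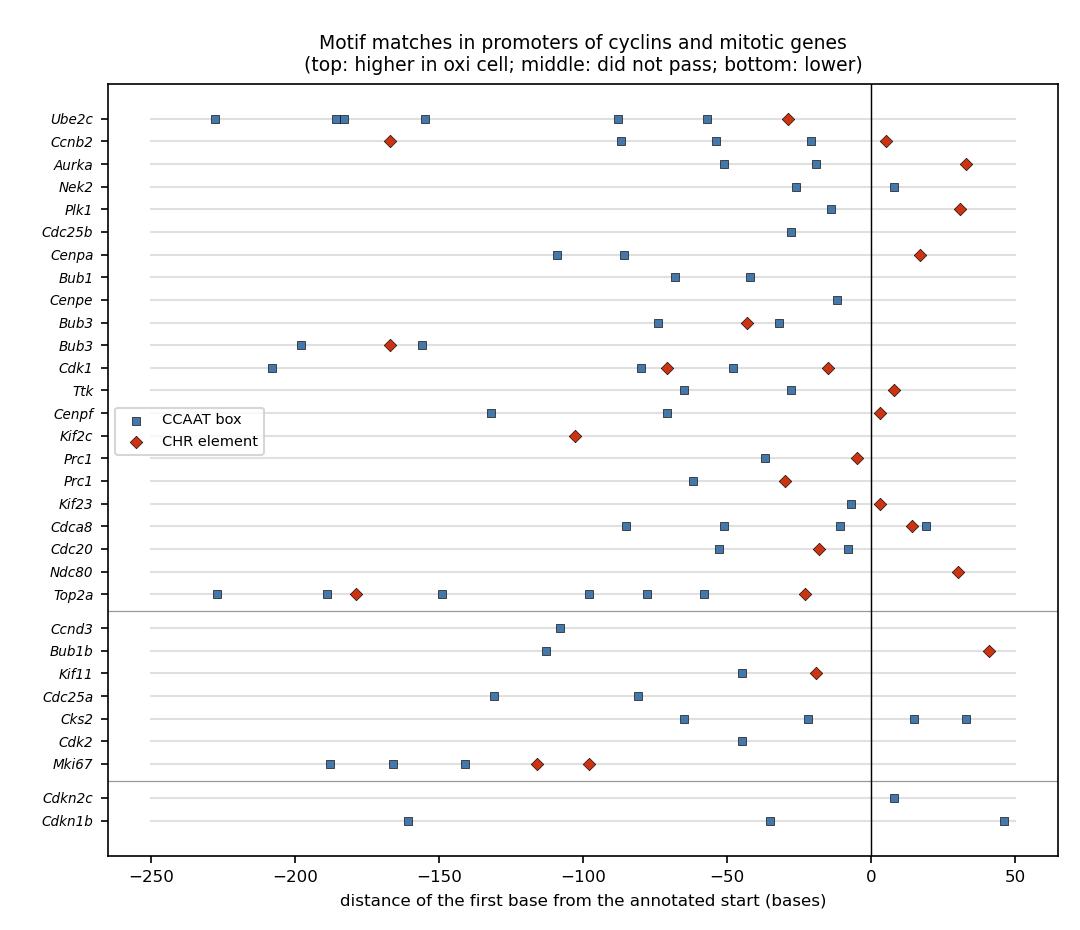
Positions of CHR matches (red diamonds) and CCAAT matches (blue squares), in bases from the annotated start, in the promoters of members that hold at least 1 match, with genes higher in oxi cell at the top, genes that did not pass in the middle and lower genes at the bottom. Most diamonds lie in the top block and close to the start, and the blocks also differ in the roles of their genes.

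In the exosomes, few of these transcripts were measured above background. In norm exo 5 of the 46 genes were above it on all 4 arrays, namely Ccnd2, Cdc20, Cdc25a, Bub3 and Mki67, and in oxi exo 3 were, namely Ccnd2, Cdc20 and Cdc25a. Over all genes 5.89% and 3.02% were. On no array of norm exo were 29 genes above background, and on none of oxi exo 34. The standard error of a log2 change in exosomes was 0.57 at the median over the 46 genes, against 0.06 in cells. At that median error, changes of the size seen in cells would not pass in exosomes. For Ccnd2, Cdc20, Cdc25a, Bub3 and Mki67 it was smaller, at 0.18, 0.27, 0.26, 0.43 and 0.28, so this limit is weaker for them.

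Between the exosome groups, cyclin D2 was the 1 gene whose chosen probe set passed the test, a share near that of all genes. By limma, 0 of the 46 genes were higher in oxi exo and 1 was lower, where 0.011% of all genes were higher and 2.29% lower. At an unadjusted p under 0.05, 1 gene was higher and 6 lower by limma, where 3.49% and 7.99% of all genes were. The methods' paired test on linear signals gave 1 and 5, where 3.05% and 6.48% of all genes passed unadjusted. All 4 arrays of oxi exo lay below all of norm exo for 4 genes and above them for 0, where 5.57% and 2.24% of all genes did so. Ccnd2 read 8599, 8072, 6126 and 6753 in norm exo and 2710.1, 2525, 2457 and 1729.9 in oxi exo. The highest oxi exo array was less than the lowest norm exo array by a wide margin, and the log2 change was -1.66 (SE 0.18, adjusted p = 1.86e-04), a 3.15-fold fall. All 7 probe sets of Ccnd2 had a negative change, from -1.85 to -0.22, and 4 of them passed. With quantile normalization the change was -0.61 and did not pass (adjusted p = 0.0602). Among the 1285 genes whose mean exosome signal was above background, the median change was -0.40, 24.9% were lower, and 9.18% had a change below that of Ccnd2.

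The fall of Ccnd2 in exosomes was larger than that in cells. The difference of the changes was -1.43 on the log2 scale (SE 0.17, adjusted p = 0.00402). By that test 0 genes had a higher and 2 a lower change in exosomes than in cells, where 0.0605% of all genes were higher and 2.05% lower. The other gene was Cenpa, at -1.62 (SE 0.35, adjusted p = 0.0474), whose exosome signals of 111, 196, 65.5 and 113 in norm exo and 45.5, 64.8, 33.1 and 105 in oxi exo were all below background, so its exosome change was not measured above background. The call of Ccnd2 was lost without replicate 1 (adjusted p = 0.0658 by limma) or 2 (0.0784) and after quantile normalization (difference -0.36, adjusted p = 0.366), and that of Cenpa with each replicate left out in turn (0.0530 to 0.229). The same refits took all genes from 11 higher and 373 lower to 0 and 0 without replicate 1 and to 0 and 4 without replicate 2.

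The other transcripts present in exosomes did not pass. Cdc20 read 807, 359, 633 and 474 in norm exo and 352, 354, 298 and 343 in oxi exo, lower on every array, with a log2 change of -0.69 (SE 0.27, adjusted p = 0.365). Bub3 read 582, 483, 346 and 614 in norm exo and 172, 213, 298 and 46.9 in oxi exo, where it was above background on 1 array, with a change of -1.72 (SE 0.43, adjusted p = 0.0558). Neither had overlapping groups. Mki67 read 439, 407, 506 and 308 in norm exo and 378, 186, 326 and 195 in oxi exo, with overlap and a change of -0.66 (SE 0.28, adjusted p = 0.431). Cdc25a read 361, 351, 372 and 275 in norm exo and 409, 367, 330.0 and 316 in oxi exo, and its groups overlapped throughout (log2 change 0.07 (SE 0.26, adjusted p = 0.963)). Cdk4, the fourth gene without overlap, was not above background on all arrays of either group and had a change of -1.76 (SE 0.47, adjusted p = 0.0806). Another probe set of Cdk4 was lower in oxi exo by the same fit, reading 229.7, 218, 237 and 193 in norm exo and 77.7, 56.6, 12.1 and 8.12 in oxi exo (log2 change -3.09 (SE 0.70, adjusted p = 0.0285)). It was above background on 1 array of norm exo and 0 of oxi exo, so no bound could be given.

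**Figure D4:**
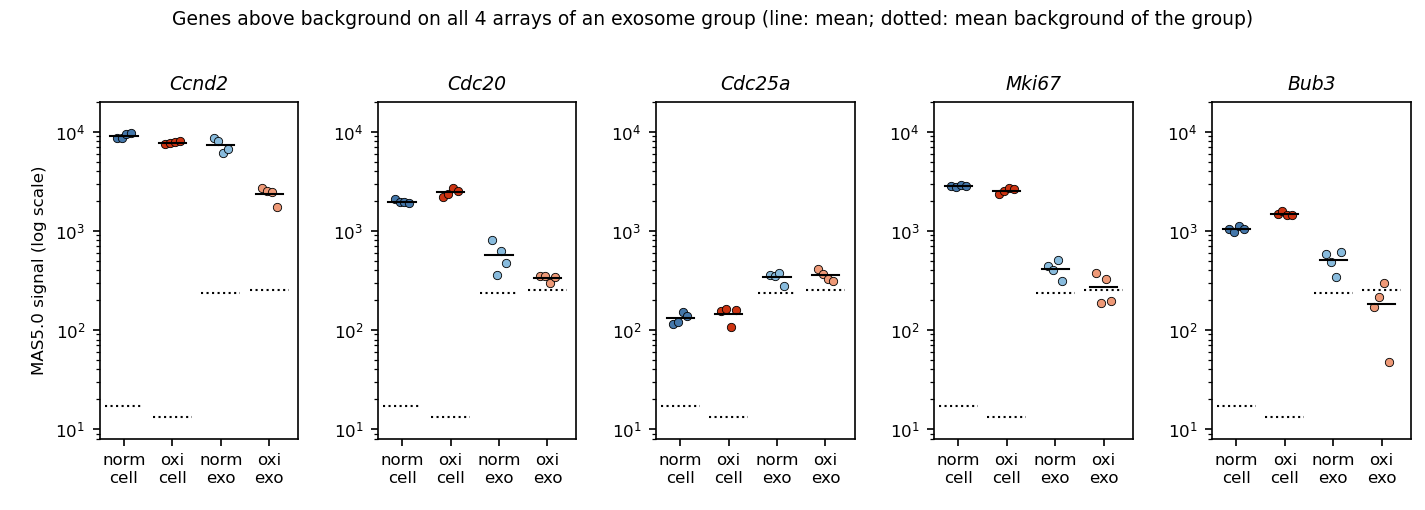
MAS5.0 signal on a log axis of the 5 genes that were above background on all 4 arrays of an exosome group, shown for every array of the 4 groups with the group mean (solid line) and the mean background of the group (dotted line). Ccnd2 is far above background in both exosome groups and lower in oxi exo, while the others lie close to the exosome background.

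Set against the cells, most of these transcripts were lower in exosomes. In norm exo 39 genes were lower and 2 higher than in norm cell, and in oxi exo 42 were lower and 2 higher than in oxi cell. Over all genes 27.5% were lower and 50.2% higher in norm exo, and 29.3% lower and 51.7% higher in oxi exo. Of all genes, however, only 51.1% and 52.5% were above background in norm cell and oxi cell, against 45 and 46 of the members. Among genes with mean log2 signal above the median of all probe sets, 4692 of 10535 were lower and 2648 higher in norm exo. In oxi exo 5020 of 10521 were lower and 2569 higher. The median log2 difference of the members was -2.23 and -2.84, while that of all genes was 1.40 and 1.58 and that of all probe sets 2.23 and 2.67. These medians depend on the scaling. After quantile normalization they were -0.11 and -0.20 over all genes and 0.13 and 0.17 over all probe sets. After spiked-control scaling they were -2.71 and -2.80 over all genes and -1.88 and -1.71 over all probe sets. With the latter scaling 45 members were lower and 0 higher in either condition, where 57.2% and 56.1% of all genes were lower and 1.54% and 2.53% higher. The exosome background was far above that of the cells, so where a gene was below it on all 4 exosome arrays only a bound was had, the mean cell signal over the exosome background. Bounds could be given for 23 genes in norm exo, from at least 1.02-fold to at least 11.6-fold lower, and for 27 in oxi exo, from at least 1.04-fold to at least 12.8-fold lower, Top2a having the highest of both. The genes counted as lower include some without a bound in either condition, such as Cdc25c, Kif23, Ndc80 and Foxm1.

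A few genes did not pass. In normal conditions these were Ccnd1, Ccnd2, Ccnd3, Ccne1 and Cdc25b, and under H2O2 they were Ccnd1 and Ccne1. Of these, Ccnd2 was the 1 gene above background on all 4 arrays of both exosome groups. Its mean signal was 9086 ± 578 (SD, n = 4) in norm cell against 7387 ± 1144 in norm exo, and the log2 difference of -0.31 (SE 0.14, adjusted p = 0.0708) did not pass. Under H2O2 Ccnd2 was at 7761 ± 218 in oxi cell against 2356 ± 431 in oxi exo, a difference of -1.74 (SE 0.21, adjusted p = 1.03e-04) that did not pass after quantile normalization (-0.34, adjusted p = 0.0745 by limma). Since the comparisons share arrays with those above, they are no separate evidence for its fall. Apart from Ccnd2 in normal conditions, genes chosen as those of highest cell signal in their role were lower in exosomes on the deposited signals. A choice by cell signal, of genes and of their probe sets, favours that direction, so it is no separate evidence. Top2a read 136, 70.1, 171 and 124 in norm exo and 14.6, 168, 9.31 and 106 in oxi exo, all below background. Cks2 read 303, 381, 169.7 and 180.0 in norm exo and 274, 135, 322 and 310.2 in oxi exo, with log2 differences from the cells of -3.54 and -3.56. Incenp read 378, 281, 101 and 160.4 and 191, 242, 145 and 148, with differences of -3.28 and -3.54. The cell signals of these 3 genes, given above, exceeded every exosome signal. Cks2 was above background on 2 arrays of norm exo and 3 of oxi exo, and Incenp on 2 and 1.

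For Cdc20 the differences were -1.86 in normal conditions and -2.87 under H2O2, for Mki67 -2.79 and -3.30, and for Bub3 -1.09 and -3.30, all lower in exosomes. After quantile normalization the differences of Bub3 and Cdc20 in normal conditions were 0.30 and -0.43, and neither passed (adjusted p = 0.277 and 0.104 by limma). For Cenpa the bounds were at least 3.81-fold and at least 5.42-fold, in that order. Ccna2 read 202, 223, 116 and 82.2 in norm exo and 147, 231, 147 and 207 in oxi exo and was at least 3.35-fold lower in the latter. Kif2c read 346, 411, 131 and 203 and 199, 231, 188 and 155, with a difference of -0.92 in normal conditions, and it was at least 2.37-fold lower under H2O2, where no array was above background. Cdkn2c read 270.0, 199.6, 267 and 203 and 166, 271, 217 and 219, with differences of -1.18 and -0.87. By limma after quantile normalization, Kif2c in normal conditions was at -0.28 (adjusted p = 0.60), and Cdkn2c was at -0.45 (0.247) and -0.29 (0.574). Without replicate 4 the difference of Kif2c in normal conditions did not pass (0.0531). In norm exo Ccna2 was above background on 1 array, Kif2c on 2 and Cdkn2c on 2, and in oxi exo on 0, 0 and 1.

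The 2 genes higher in exosomes were Cdc25a and Cdk6. Cdc25a was at 131 ± 17.2 in norm cell against 339.5 ± 44.1 in norm exo (log2 difference 1.37 (SE 0.26, adjusted p = 9.43e-04)), and the difference was 1.31 (SE 0.27, adjusted p = 0.00181) under H2O2. After spiked-control scaling it turned to -2.73 and -3.07. Cdk6, near background in cells, read 340.3, 407, 167 and 258 in norm exo and 178, 281, 114 and 204 in oxi exo, with differences of 4.75 and 3.26. With the same scaling they were 0.64 and -1.12, and neither passed (adjusted p = 0.411 and 0.0660 by limma). The direction therefore depended on the scaling for Cdc25a in both conditions and for Cdk6 under H2O2.

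**Figure D5:**
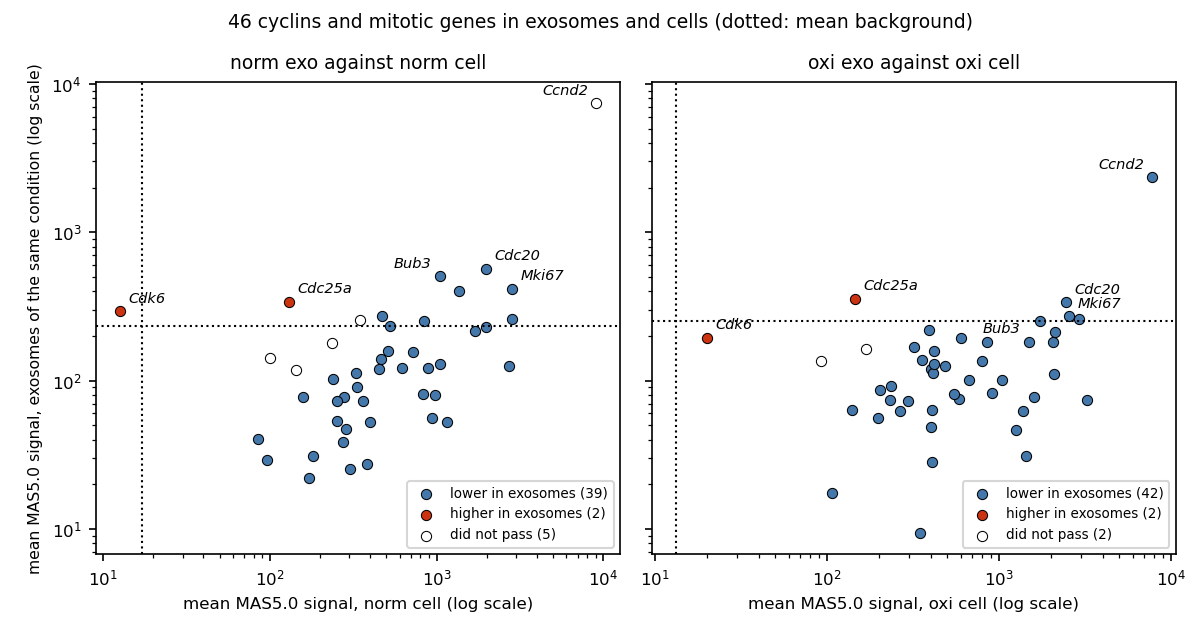
Mean MAS5.0 signal of each of 46 genes in cells (horizontal log axis) and in exosomes of the same condition (vertical log axis), for normal conditions on the left and H2O2 on the right, with dotted lines at the mean background of each group. Blue points are lower in exosomes (39 and 42 genes), red higher (2 and 2) and open ones did not pass, and most blue points lie under the exosome background.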

How the data were processed

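RNA of exosomes and MC/9 cells was hybridised by the authors to Affymetrix mouse arrays, 16 in all (Mouse 430A 2.0 in the study's methods, Mouse 430 2.0 per the labels, whose probe sets the table holds). The deposited values are intensity signals, linear and not logged, which the authors obtained with MAS5.0 in GCOS 1.2 and brought to a trimmed mean of 100 on each array (2% trimmed at each end). Of 45101 probe sets, 64 controls were left out, and the rest held 34945 with 1 gene symbol, 932 with several and 9160 with none.

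For each comparison limma 3.58.1 under R 4.3.3 was fitted to log2 of the deposited signals (lmFit, eBayes with trend). The replicate number entered as a block, since the study's methods name a paired test. P-values were adjusted by Benjamini-Hochberg across all tested probe sets, with a threshold of 0.05. The fit was tested on simulated data. The difference of changes was fitted on the 8 within-number differences. Background was the 95th percentile over 275 probe sets for 229 genes. Values per array were given for members past the threshold and changed alike in all 4 pairs (up to 20 by size), the 2 of highest cell signal in each role and those above background in exosomes. The members and gene lists were chosen with earlier results of these data known. Alternatives concerned the block, the scaling (quantile or spiked controls), a filter, an offset of 100, a floor set to background, the paired test of the methods, the probe set and each replicate left out. The number of arrays limits the precision. Python 3.11.15 served for tables and promoters.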

Additional observations from a re-analysis of the deposited data

Results flagged for a closer look

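Single arrays stood far from the other 3 of their group in 3 of the 99 groups in which a gene was above background, where chance gives about 1 in 20. The gap to the nearest array was 0.969 of the whole range for Ccnd1, whose norm cell array 3 was low at 214 against 245 to 246 on the others. It was 0.898 for Cdc25a, whose oxi cell array 3 was low at 106 against 155 to 161, and 0.891 for Ube2c, whose oxi cell array 3 was high at 2245 against 2040 to 2063. Without replicate 3, Ccnd1 stayed lower and Ube2c higher in oxi cell.

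The change under H2O2 was lower in exosomes than in cells for Ccnd2, by limma on the differences within replicate numbers. The difference was -1.43 on the log2 scale (adjusted p = 0.00402), and Ccnd2 was lower in all 4 pairs of both exosomes and cells. The same test passed for Cenpa at -1.62 (adjusted p = 0.0474), but its exosome signals were below background on all 8 arrays, so that value is no measured difference. The call of Ccnd2 was lost without replicate 1 (adjusted p = 0.0658) or 2 (0.0784), and that of Cenpa with each replicate left out in turn (0.0530 to 0.229).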

How the results depend on the processing

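In the cells, 19 of the 27 rises kept their direction and passed under all 10 refits with limma, and 0 of the 5 falls did. Counts of members higher and lower in oxi cell were 26 and 5 with quantile normalization, 35 and 0 with spiked-control scaling, 29 and 6 with the filter, 26 and 5 with log2(signal + 100), 29 and 6 with the floor, 23 to 24 and 4 to 5 with each replicate left out, and 0 and 0 after Benjamini-Hochberg by the methods' paired test on linear or on log2 signals (29 and 7 unadjusted on linear signals). Of all 18193 genes, 1281 were higher and 836 lower with quantile normalization, and 4048 and 148 with spiked-control scaling. Counts were 1476 and 1224 of 10286 with the filter, 1073 and 780 with the offset, and 1660 and 2508 of 11437 with the floor. Leaving out each replicate gave 728 to 1043 and 496 to 823. The adjusted paired test gave 1 and 1 on linear signals and 0 and 0 on log2. Its 0 counts are thus not particular to the members. Rises lost without 1 replicate were those of Ccna2, Kif23, Kif2c, Ndc80, Cdc20, Aurkb, Top2a and Cenpf. The rise of Ccna2 was also lost with quantile normalization, and that of Ndc80 with log2(signal + 100). Ccnd2 turned to 0.0167 after quantile normalization and 0.0709 after spiked-control scaling. Centring on the median change of all probe sets, chosen after seeing the data, changed no direction.

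Whether the replicate numbers pair samples was not settled. Deviations of same-numbered samples correlated at -0.0164 to 0.0224 over all probe sets, many of them below background. Over probe sets above background in both exosome groups, same-numbered norm exo and oxi exo samples correlated at -0.0429 to 0.4613. Samples of other numbers correlated there at -0.5308 to 0.5198. Without the replicate block, counts were 28 higher and 5 lower in cells and 0 and 1 in exosomes. Against cells they were 2 and 39 for norm exo and 2 and 42 for oxi exo. For the difference of changes they were 0 and 3. Over all genes the counts without the block were 1361 and 1110 in cells and 4 and 388 in exosomes. Against cells they were 9291 and 5014 for norm exo and 9494 and 5323 for oxi exo. For the difference of changes 32 were higher and 441 lower.

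Other cell cycle genes were higher and lower in 67 and 1 cases with spiked-control scaling, 0 and 0 after adjustment by either form of the methods' test, and 19 to 23 and 3 to 6 with each replicate left out. In exosomes, members lower were 0 with quantile normalization, 2 with the filter, 3 with the offset, 3 with the floor, 0 after adjustment by either form of the methods' test, 5 unadjusted (with 1 higher) and 1 to 2 with each replicate left out. Over all genes the lower counts in exosomes were 163 with quantile normalization and 572 with the offset. With the filter and the floor they were 487 of 9767 and 508 of 4375. Lower differences of changes numbered 1 with quantile normalization, 4 with the filter, 7 with the offset and 22 with the floor (and 5 higher). They numbered 0 after adjustment by either form of the methods' test, 22 unadjusted and 0 to 2 with each replicate left out. For all genes the lower differences were 179 with quantile normalization, 485 of 10534 with the filter and 570 with the offset. With the floor 1266 of 12040 genes were lower and 3946 higher. Members higher in exosomes than in cells numbered 0 in either condition with spiked-control scaling and 9 and 8 with the floor. With the floor, 7101 of 11234 and 7598 of 11567 genes were higher. When the probe set was chosen over 16 arrays, 4 members were higher in oxi exo.

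The floor, which by construction raises exosome values to the higher exosome background, turned norm exo differences to 1.46 for Cdc25c, 0.44 for Kif20a, 0.36 for Kif23, 0.55 for Ndc80 and 1.30 for Foxm1, and oxi exo differences to 0.32 for Ccne2, 0.13 for Cdc25b, 0.85 for Cdc25c, 0.14 for Kif23, 0.37 for Ndc80 and 1.25 for Foxm1. Spiked-control scaling turned Cdc25a to -2.73 and -3.07 and Cdk6 in oxi exo to -1.12, and quantile normalization turned Bub3 in norm exo to 0.30. For the other changes the cause was not tested.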
